A study of Homo sapiens with 24 samples.

Results

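The 9 genes described here encode transcription factors that maintain hepatocyte identity: HNF4A, FOXA1, FOXA2, FOXA3, CEBPA, CEBPB, NR1H4, NR5A2 and PROX1. The list was set by gene name, as liver-enriched factors, by a rule that uses no measured value, although earlier results of these data were known when it was chosen. Its members were matched by Ensembl identifier to 9 of the 58676 gene rows counted in every library. All 9 reached 1 CPM (the reads of a gene scaled to a common total of gene reads) in 2 or more libraries and were among the 13136 genes tested. The study measured polyadenylated RNA in HepG2 cells, a line established from a human liver tumour, which had been transiently transfected with a negative control siRNA (siControl) or an siRNA to one IGF2BP gene (siIGF2BP1, siIGF2BP2 and siIGF2BP3). The IGF2BP genes encode related RNA-binding proteins that control the fate of the mRNAs they bind, and the comparison asks which mRNAs change in level or in decay when one of them is depleted. Actinomycin D, an inhibitor of transcription, was present for the last 0, 3 or 6 h before collection, so that the 24 libraries form 12 groups of 2 replicates. Every group carries a transfected siRNA, and the 0 h groups are the only ones without the drug.

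Hepatocyte transcription factors form a network in which the members activate each other's genes as well as those of plasma proteins, bile acid enzymes and gluconeogenic enzymes. FOXA proteins open chromatin in the early liver, HNF4A and the C/EBP proteins drive the differentiated programme, and the nuclear receptors NR1H4 (FXR) and NR5A2 (LRH-1) tune bile acid and cholesterol metabolism. mRNAs of transcription factors are, as a class, known to turn over faster than those of secreted and metabolic proteins.

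The libraries held 31843248 to 74252042 gene reads each, and 50889 to 119088 reads of the added ERCC synthetic RNAs. The share of ERCC reads stood apart between replicates in siControl at 0 h, where replicate 1 held 0.131% of gene reads and replicate 2 held 0.150%, and in siIGF2BP2 at 6 h, where they held 0.187% and 0.162%. Each siRNA lowered its own target at 0 h, with a log2 difference of -2.24 for IGF2BP1 (adjusted p = 2.55e-36 in edgeR), -1.93 for IGF2BP2 (adjusted p = 1.8e-30) and -1.49 for IGF2BP3 (adjusted p = 7.83e-25). The liver label was checked against 6 liver markers, whose summed level was 28698 to 54771 CPM in the siControl libraries and 28828 to 55784 CPM in the knockdown libraries, whereas 3 blood markers summed to at most 0.114 CPM and 3 endothelial markers to at most 2.77 CPM in any library. Of the other lists, 4 bile duct markers summed to 312 to 557 CPM and 5 mesenchymal markers to 32.5 to 59.3 CPM, with COL1A2 and DCN under 0.1 CPM in every library. At 0 h a few of these moved with a knockdown: KRT19 by -0.15 and SOX9 by -0.17 in siIGF2BP1, KRT19 by -0.47 in siIGF2BP3, PDGFRB by -0.48 in siIGF2BP1 and ACTA2 by 0.19 in siIGF2BP2, and their part in the results below was not tested. Each transfected plate was divided into 3 before the drug, and nothing in the labels says that replicates came from separate cultures, so p-values measure the spread between these libraries, which may be technical. Since the libraries are bulk RNA, fewer cells carrying a transcript and less of it per cell cannot be told apart.

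Before actinomycin D, the 9 mRNAs spanned a wide range in siControl cells. Levels were put on a length-corrected scale (RPKM, the CPM per kilobase of all annotated exons of a gene). On it CEBPA, an activator of metabolic genes in mature hepatocytes, was highest at 50.1 and 49.2 in the 2 replicates. This was above 94.9% of the genes tested. HNF4A, the nuclear receptor that activates most liver-specific genes, followed at 34.2 and 33.2 RPKM and FOXA1, a pioneer factor, at 30.5 and 33.0 RPKM. These lay close together, with the higher FOXA1 library just under the lower HNF4A library. The order depends on the length used, since the exons covered 10167 bases for HNF4A and 2601 for CEBPA. In reads HNF4A was the higher, with 19921 and 25073 against 7473 and 9499 for CEBPA.

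FOXA2, the second pioneer factor and a regulator of fasting metabolism, stood at 25.4 and 25.5 RPKM. NR1H4, the bile acid receptor, was at 24.1 and 23.9 RPKM, and CEBPB, the acute-phase C/EBP factor, at 19.7 and 19.3 RPKM. PROX1, a homeobox protein that represses the activity of HNF4A and NR5A2, was at 18.0 and 17.9 RPKM. FOXA3, the third FOXA protein, was lower, at 5.92 and 6.55 RPKM, and NR5A2, an activator of bile acid synthesis genes, was lowest at 2.002 and 2.066 RPKM, above 30.8% of the genes tested. No 2 neighbours in this order overlapped between replicates, although with 2 libraries each the order of HNF4A and FOXA1 rests on a difference of similar size to the spread of FOXA1 (SD 1.77 RPKM, n = 2).

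The siIGF2BP1 cells differed most from siControl before the drug. Of the 9 mRNAs, 3 rose and 1 fell, against 15.9% of all genes tested that changed in either direction. The remaining 5 did not pass the test. Levels in the rest of this comparison are CPM scaled by the trimmed mean of M values (TMM), which sets the bulk of genes equal between libraries.

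NR1H4 changed most. It stood at 78.1 and 77.3 CPM in the siControl replicates, at 112 and 115 CPM in siIGF2BP1, at 70.3 and 69.1 CPM in siIGF2BP2, and at 95.2 and 98.8 CPM in siIGF2BP3. No 2 of the 4 groups overlapped, with siIGF2BP1 highest and siIGF2BP2 lowest. On the log2 scale, the rise in siIGF2BP1 came to 0.54 (SE 0.0477, adjusted p = 3.56e-11 in edgeR), or 45.8%.

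HNF4A stood at 311 and 301 CPM in siControl and at 348 and 364 CPM in siIGF2BP1. Both siIGF2BP1 libraries were above both siControl libraries, and the rise was 0.22 (SE 0.0348, adjusted p = 1.18e-05 in edgeR), or 16.3%. CEBPA was at 117 and 114 CPM in siControl and at 142 and 147 CPM in siIGF2BP1. Its groups did not overlap either, and it rose by 0.32 (SE 0.0622, adjusted p = 0.000187 in edgeR), or 25.2%.

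PROX1 was the member that fell, from 144 and 142 CPM in siControl to 129 and 127 CPM in siIGF2BP1. The difference of -0.15 (SE 0.0414, adjusted p = 0.00784 in edgeR) amounts to -10.1%, and it no longer passed without replicate 1 of siControl (adjusted p = 0.0783) or without replicate 2 of siIGF2BP1 (adjusted p = 0.0797). The FOXA genes did not pass, with log2 differences of 0.04 for FOXA1, -0.16 for FOXA2 and -0.14 for FOXA3, nor did CEBPB (0.15, SE 0.0815) and NR5A2 (0.09, SE 0.127). FOXA2 did pass where only the 4 libraries compared were fitted (-0.17, adjusted p = 0.00534 in edgeR).

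In siIGF2BP2 cells, 1 member rose and 1 fell, against 12.1% of all genes tested that changed in either direction. FOXA1 was at 120.5 and 129.7 CPM in siControl and at 157 and 152 CPM in siIGF2BP2. The groups did not overlap, and the rise was 0.30 (SE 0.0507, adjusted p = 3.18e-05 in edgeR), or 23.4%. NR1H4, whose values stand above, differed by -0.16 (SE 0.0483, adjusted p = 0.0258 in edgeR), or -10.3%, in the direction opposite to the other knockdowns. That call was lost without any 1 of the 4 libraries compared (adjusted p 0.0959 to 0.164).

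In siIGF2BP3 cells, NR1H4 alone of the members passed, against 9.39% of all genes tested, with a rise of 0.32 (SE 0.048, adjusted p = 9.55e-06 in edgeR), or 24.7%. NR5A2 stood at 13.5 and 13.9 CPM in siControl and at 16.9 in both siIGF2BP3 libraries. These groups did not overlap, but the difference of 0.30 (SE 0.127) had an adjusted p of 0.147 in edgeR. The 3 knockdowns were compared with the same 2 siControl libraries and are therefore not independent of each other. Compared directly, 5 members differed between siIGF2BP1 and siIGF2BP2 (18.7% of all genes), 4 between siIGF2BP1 and siIGF2BP3 (14.3%) and 3 between siIGF2BP2 and siIGF2BP3 (9.19%). NR1H4 and HNF4A differed in each of these with TMM scaling. With ERCC scaling HNF4A differed in none of them (adjusted p = 0.185, 0.942 and 0.563 in edgeR). NR1H4 then no longer differed between siIGF2BP1 and siIGF2BP3 (adjusted p = 0.495 in edgeR).

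**Figure D1:**
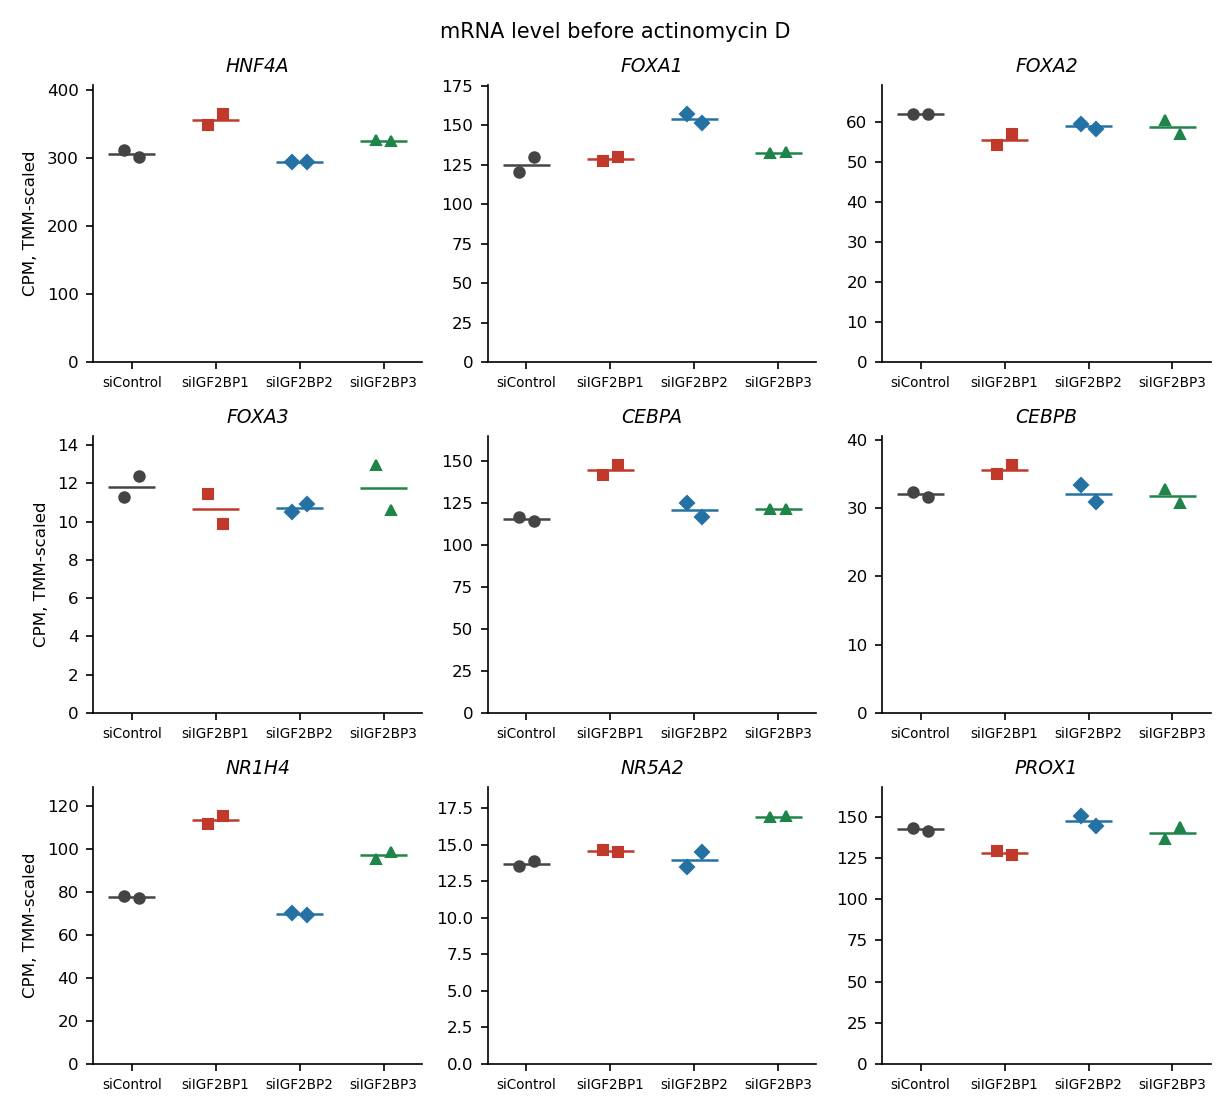
Level of each mRNA before actinomycin D, in TMM-scaled CPM on the vertical axis of each panel, for the 4 conditions; points are libraries, 2 per condition, and lines are their means. For NR1H4 the siIGF2BP1 libraries (112 and 115 CPM) and the siIGF2BP3 libraries (95.2 and 98.8 CPM) lie above the siControl libraries (78.1 and 77.3 CPM), and the siIGF2BP2 libraries (70.3 and 69.1 CPM) below them.

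Scaling by ERCC reads instead, which keeps differences in total mRNA per input RNA, left the rises of NR1H4 and CEBPA in siIGF2BP1, FOXA1 in siIGF2BP2 and NR1H4 in siIGF2BP3 past the threshold. It took away the calls of HNF4A (0.18, adjusted p = 0.240 in edgeR) and PROX1 (-0.19, adjusted p = 0.272) in siIGF2BP1 and of NR1H4 in siIGF2BP2 (-0.08, adjusted p = 0.664). On that scale the median of all genes at 0 h lay at -0.02, 0.10 and 0.09 in siIGF2BP1, siIGF2BP2 and siIGF2BP3.

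The same contrasts were taken at 3 h and 6 h of actinomycin D, a comparison added after the data had been seen, on the TMM scale. In siIGF2BP1, 2 members were higher and 2 lower at 3 h (20.9% of all genes changed), and 2 were higher and 1 lower at 6 h (24.3% of all genes). In siIGF2BP2, 4 were higher at 3 h (17.0% of all genes) and 2 at 6 h (18.7%), with none lower at either time. In siIGF2BP3, 2 were higher at 3 h (16.0% of all genes), and 1 was higher and 1 lower at 6 h (18.5%).

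NR1H4 stood apart in siIGF2BP1 and siIGF2BP3 at all 3 times. At 3 h it was at 48.6 and 45.1 CPM in siControl, 73.0 and 74.0 in siIGF2BP1, 44.6 and 45.7 in siIGF2BP2, and 61.2 and 66.0 in siIGF2BP3. At 6 h it was at 36.3 and 35.8 CPM in siControl, 51.6 and 49.2 in siIGF2BP1, 35.6 and 33.4 in siIGF2BP2, and 42.0 and 45.8 in siIGF2BP3. The siIGF2BP1 and siIGF2BP3 libraries lay above the siControl libraries without overlap, and the siIGF2BP2 libraries overlapped them at 3 h and lay just below them at 6 h.

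The log2 differences of NR1H4 in siIGF2BP1 were 0.65 at 3 h (adjusted p = 1.94e-12 in edgeR) and 0.48 at 6 h (adjusted p = 8.16e-09), and in siIGF2BP3 0.44 (adjusted p = 6.46e-08) and 0.28 (adjusted p = 0.000284). HNF4A in siIGF2BP1 was higher by 0.24 at 3 h (adjusted p = 1.62e-06 in edgeR) and 0.22 at 6 h (adjusted p = 9.23e-06), close to its 0 h difference of 0.22.

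FOXA1 in siIGF2BP2 was at 11.7 and 12.4 CPM at 3 h against 9.67 and 8.99 CPM in siControl, and at 8.22 and 7.28 CPM at 6 h against 5.17 and 6.17 CPM. Its groups overlapped at neither time, and the differences were 0.37 (adjusted p = 0.00039 in edgeR) and 0.45 (adjusted p = 0.000396). In siIGF2BP1 the same mRNA was lower at 3 h, by -0.26 (adjusted p = 0.0302 in edgeR), and missed the threshold at 6 h (-0.28, adjusted p = 0.0502). The 3 h call was lost without replicate 1 of siControl (adjusted p = 0.198) or without either siIGF2BP1 library (adjusted p = 0.146 and 0.0916).

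PROX1 in siIGF2BP2 was higher by 0.22 at 3 h (adjusted p = 0.000643 in edgeR) and 0.22 at 6 h (adjusted p = 0.000485), where its 0 h difference had been 0.05 (adjusted p = 0.518). CEBPA in siIGF2BP2 was higher by 0.34 at 3 h (adjusted p = 0.00128 in edgeR), which was lost without replicate 2 of siControl (adjusted p = 0.0649), and CEBPB by 0.32 (adjusted p = 0.037), which was lost without replicate 1 of siControl (0.23, adjusted p = 0.300) or without either siIGF2BP2 library (adjusted p = 0.190 and 0.0722).

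NR5A2 in siIGF2BP3 was higher by 0.58 at 3 h (adjusted p = 0.0108 in edgeR), a call lost without replicate 1 of siControl (adjusted p = 0.202) or replicate 1 of siIGF2BP3 (adjusted p = 0.160). PROX1 in siIGF2BP1 was lower by -0.13 at 6 h (adjusted p = 0.0469 in edgeR), which was lost without any 1 of the 4 libraries compared.

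FOXA3 was scarce after the drug. At 3 h it held 65 and 71 reads in siControl against 52 and 26 in siIGF2BP1, and at 6 h 65 and 46 reads in siControl against 24 and 13 in siIGF2BP3. The log2 differences were -0.72 (adjusted p = 0.0332 in edgeR) and -0.90 (adjusted p = 0.0335). The first was -0.35 without replicate 2 of siIGF2BP1 (adjusted p = 0.450) and was also lost without either siControl library (adjusted p = 0.164 and 0.0689), and the second was lost without replicate 1 of siControl (adjusted p = 0.205) or replicate 2 of siIGF2BP3 (adjusted p = 0.267).

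The scale matters more at these times than at 0 h. With ERCC scaling the median log2 difference of all genes was 0.04, 0.06 and 0.15 at 3 h and 0.17, 0.27 and 0.31 at 6 h in siIGF2BP1, siIGF2BP2 and siIGF2BP3. On that scale 6 members were higher at 6 h in siIGF2BP3 and 5 in siIGF2BP2, where 6905 and 6336 of the 13136 genes tested were higher and 91 and 157 lower. The FOXA1 and FOXA3 calls at 3 h in siIGF2BP1 and the FOXA3 call at 6 h in siIGF2BP3 were lost (adjusted p = 0.274, 0.0782 and 0.0963 in edgeR), as were CEBPB at 3 h in siIGF2BP2 (0.38, adjusted p = 0.0714) and PROX1 at 6 h in siIGF2BP1 (0.032, adjusted p = 0.835), whereas the NR1H4 calls in siIGF2BP1 and siIGF2BP3 held at both times.

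**Figure D2:**
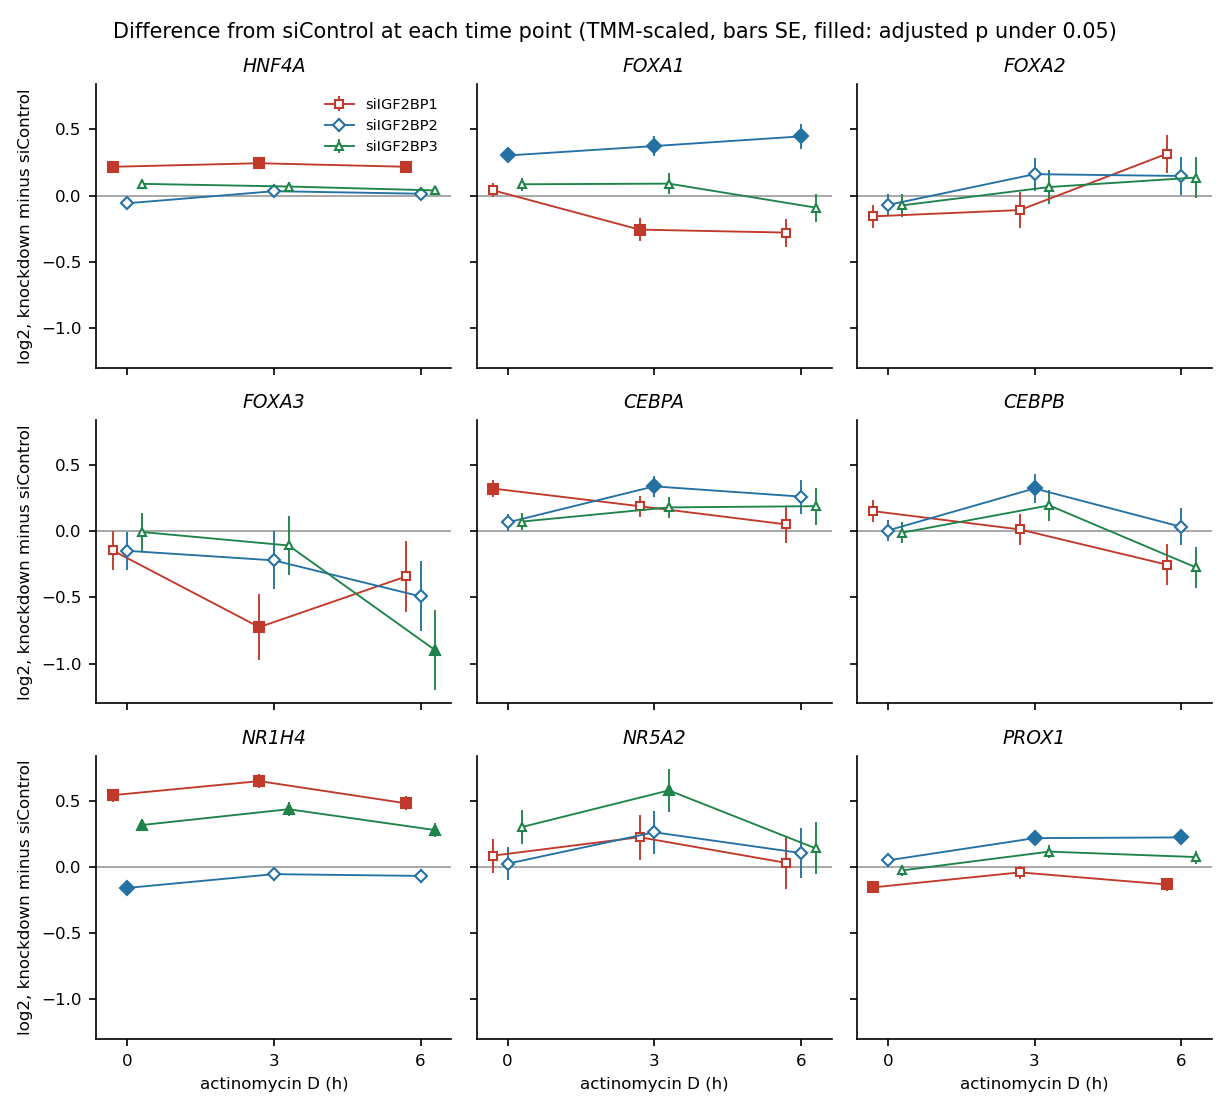
Difference between each knockdown and siControl (log2, TMM-scaled, vertical axis) at 0, 3 and 6 h of actinomycin D (horizontal axis), 1 panel per mRNA; bars are SE, and filled markers have an adjusted p under 0.05 in edgeR. NR1H4 in siIGF2BP1 stays between 0.48 and 0.65 at the 3 times, FOXA1 in siIGF2BP2 runs from 0.30 to 0.45, and the bars of FOXA3 are the widest.

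Decay was followed on the ERCC scale, as percent of the 0 h mean that remained. In siControl cells the 9 mRNAs separated into fast and slow. After 3 h, FOXA1 was down to 5.66% and 5.25% in the 2 replicates, and FOXA2 to 7.74% and 7.15%. FOXA3 was at 10.1% and 8.90%, CEBPB at 10.1% and 11.6%, and CEBPA at 13.8% and 12.6%. No 3 h library kept more than 13.8% of the 0 h mean of any FOXA or C/EBP mRNA.

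NR5A2 stood at 15.1% and 19.8% after 3 h and PROX1 at 21.5% and 22.2%. The 2 remaining nuclear receptors lost less, with NR1H4 at 45.7% and 42.3% and HNF4A at 61.6% and 62.1%. At 3 h neither HNF4A nor NR1H4 overlapped any other member.

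At 6 h, CEBPA was the lowest, at 2.18% and 1.77%, and FOXA1 was at 2.37% and 2.59%. The other fast mRNAs lay between 3.60% and 5.79% (FOXA2, FOXA3 and CEBPB), NR5A2 at 9.98% and 8.13%, and PROX1 at 17.5% and 16.2%. NR1H4 kept 26.7% and 24.1% and HNF4A 57.6% and 49.7%. The 0 h replicates of HNF4A themselves lay at 108% and 91.9% of their mean. In percentage points its 3 h and 6 h libraries differed by no more than that spread, but as ratios the widest gap was larger. The 3 h and 6 h libraries of HNF4A did not overlap.

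**Figure D3:**
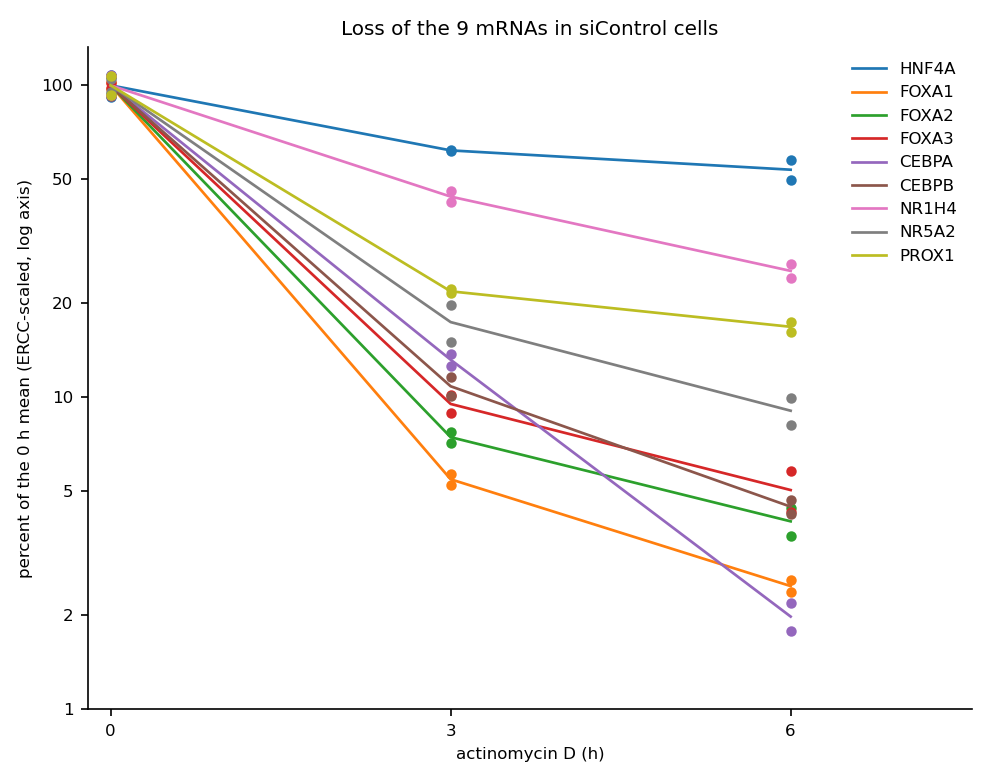
Percent of the 0 h mean that remained (ERCC-scaled, log axis, vertical) after 0, 3 and 6 h of actinomycin D in siControl cells; points are libraries, 2 per time, and lines join their means. FOXA1 falls to 5.66% and 5.25% by 3 h and then flattens, CEBPA keeps falling to 2.18% and 1.77% at 6 h, and HNF4A remains at 57.6% and 49.7%.

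In a fit of intercept and slope per condition, the loss over 6 h passed the test for 9 of 9 members in each of the 4 conditions, where the share of all genes that fell was 80.3% for siControl, 69.1% for siIGF2BP1, 71.3% for siIGF2BP2 and 67.2% for siIGF2BP3. The members' median slope in siControl was -4.46 on the log2 scale over 6 h, against -0.88 for all genes tested. The slope was -5.67 for CEBPA (SE 0.133, adjusted p = 1.57e-18 in edgeR), -5.494 for FOXA1 (SE 0.736, adjusted p = 5.62e-07), -1.98 for NR1H4 (SE 0.114, adjusted p = 8.67e-13) and -0.90 for HNF4A (SE 0.15, adjusted p = 1.07e-05). HNF4A was the member whose fall depended on the scale: with TMM scaling its slope was -0.03 (adjusted p = 0.802 in edgeR), so that it fell as the bulk of mRNA did, while the other 8 stayed past the threshold.

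The loss was not even over the 2 intervals. Between 0 and 3 h all 9 fell, against 61.3% of all genes, and between 3 and 6 h all 9 fell again, against 64.9% of all genes. In the first interval the log2 change was -4.20 for FOXA1 (SE 0.107), -3.75 for FOXA2 (SE 0.118) and -2.92 for CEBPA (SE 0.0987). In the second it was -1.14 for FOXA1 (SE 0.118), -0.89 for FOXA2 (SE 0.132) and -2.73 for CEBPA (SE 0.116). Thus FOXA1 and FOXA2 lost most in the first 3 h, whereas CEBPA lost nearly the same in each interval. The fall of HNF4A in the second interval was small (-0.21, SE 0.0823, adjusted p = 0.0212 in edgeR) and was lost without either 3 h library (adjusted p = 0.0721 and 0.0919) or without replicate 2 at 6 h (adjusted p = 0.402). With TMM scaling its sign turned (0.21, adjusted p = 6.84e-06 in edgeR), as did that of PROX1 (0.04, adjusted p = 0.581), and FOXA3 no longer passed (-0.50, adjusted p = 0.0797).

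Losses in the 2 intervals were compared directly in a test added after the data had been seen. For 7 of 9 members the loss slowed, against 10.9% of all genes, and for none did it speed up. The difference between intervals was 3.06 for FOXA1 (SE 0.196), 2.86 for FOXA2 (SE 0.221), 2.49 for FOXA3 (SE 0.392), 1.91 for CEBPB (SE 0.254), 1.81 for PROX1 (SE 0.161) and 1.56 for NR5A2 (SE 0.305, adjusted p = 7.52e-06 in edgeR, the largest of these 6). The median was 1.81 over the members and -0.03 over all genes. HNF4A also slowed (0.49, adjusted p = 0.00817 in edgeR), but not past the threshold without 4 of the 6 siControl libraries left out singly, namely replicate 1 at 0 h (adjusted p = 0.0584), replicates 1 and 2 at 3 h (0.140 and 0.107) and replicate 1 at 6 h (0.0894). CEBPA (0.19, SE 0.182, adjusted p = 0.577 in edgeR) and NR1H4 (0.39, SE 0.16, adjusted p = 0.0927) did not pass. NR1H4 did so with TMM scaling (0.36, adjusted p = 0.00244 in edgeR) and without replicate 2 of siControl at 0 h (0.49).

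The reads behind these values were few after the drug. In siControl, FOXA1 held 7716 and 10813 reads at 0 h, 384 and 443 at 3 h, and 281 and 294 at 6 h. CEBPA held 7473 and 9499, then 865 and 982, then 240 and 186 reads at the same times, and FOXA3 722 and 1034, then 65 and 71, then 65 and 46.

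Half-lifetimes were taken from first-order decay over both intervals, for 11006 genes in siControl with a median of 6.25 h (quartiles 3.19 and 13.4 h). Of 12148 genes with a mean of at least 1 CPM, those with no net loss have no half-lifetime and are left out. The median and the percentages below refer to the genes that remain. By this estimate FOXA1 had the shortest among the members, 0.874 h, and only 0.418% of genes were shorter. FOXA2 followed at 0.989 h, CEBPA at 1.04 h, FOXA3 at 1.08 h and CEBPB at 1.10 h, all within the shortest 1.44% of genes. NR5A2 at 1.41 h, PROX1 at 1.72 h and NR1H4 at 2.76 h were intermediate. HNF4A at 5.25 h lay near the median of the genes with a half-lifetime, with 43.5% of them shorter. With TMM scaling, which removes the shared loss of mRNA, the half-lifetime was 23.9 h for HNF4A, 4.67 h for NR1H4 and 2.32 h for PROX1, and 1.004 to 1.78 h for the other members. Taken instead from the fitted slope with ERCC scaling, the shortest in siControl was that of CEBPA, at 1.06 h, before FOXA1 at 1.09 h.

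Leaving out 1 library at a time moved the half-lifetime of HNF4A in siControl between 4.58 and 6.25 h, that of NR1H4 between 2.59 and 2.97 h and that of FOXA1 between 0.867 and 0.882 h. Since 7 of 9 losses slowed, a single half-lifetime joins 2 rates. It comes from the mean of the rates from 0 to 3 h and from 0 to 6 h, and so leans to the first interval. Taken apart, the half-lifetime of FOXA1 was 0.715 h over the first 3 h and 2.64 h over the next. That of PROX1 was 1.37 and 7.94 h, and that of CEBPA 1.03 and 1.10 h.

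Lists of genes around the members were examined for context. Of 29 other liver transcription factors tested, 28 fell with a median slope of -1.99 in siControl, among them XBP1 (-4.34, adjusted p = 3.76e-19 in edgeR), a factor of secretory capacity, and GATA4 (-4.25, adjusted p = 2.07e-14), a partner of FOXA proteins. Of 15 partners and coregulators, 14 fell with a median of -2.50, among them the corepressor TLE1 (-2.57, adjusted p = 2.61e-15 in edgeR). Of 28 targets and liver products tested, 13 fell and none rose, with a median of -0.16, against 80.3% of all genes that fell and an all-gene median of -0.88. Of the members, HNF4A alone (-0.90) lay near that all-gene median.

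Sequence bears on this contrast only as a description. The pentamer ATTTA is the core of AU-rich elements, through which some short-lived mRNAs are targeted for decay, and it was searched on the mRNA strand of each canonical 3′UTR (GENCODE annotation of hg38), overlaps included. PROX1 held 27 copies, NR5A2 9, FOXA1 7, HNF4A, FOXA2 and NR1H4 2 each, CEBPA and CEBPB 1 each, and FOXA3 none, where 68.0% of 19397 protein-coding genes held at least 1. The density per kilobase was 3.86 for FOXA1 and 4.76 for PROX1 but 0.712 for CEBPA and 0.629 for HNF4A, around an all-gene median of 1.52, so that the fast CEBPA and the slow HNF4A were alike on this count. The longer motif TTATTTATT was in the 3′UTR of none of the 9 and of 8.51% of genes. The windows below show the copies (capitals) in the members with 1 or 2, so that the neighbouring bases of slow and fast mRNAs can be set side by side, 5′ to 3′ on the mRNA strand of hg38, at chr20:44430940-44430964 and chr20:44432628-44432652 (plus) for HNF4A, chr12:100563591-100563615 and chr12:100563941-100563965 (plus) for NR1H4, chr20:22581272-22581296 and chr20:22581250-22581274 (minus) for FOXA2, chr19:33301055-33301079 (minus) for CEBPA and chr20:50192287-50192311 (plus) for CEBPB.
HNF4A, first copy: gcatcatctcATTTAatcctccctt
HNF4A, second copy: gaattgtgaaATTTAcatcaagcaa
NR1H4, first copy: cttgatgaatATTTAtgttgtaatt
NR1H4, second copy: tgagggggtaATTTAcagaaagata
FOXA2, first copy: ggtccgattaATTTAtggtttctgc
FOXA2, second copy: tgcgtgctttATTTAtggcttataa
CEBPA: caactctagtATTTAggataacctt
CEBPB: ccgtggtgttATTTAaagaagaaac

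In the gene annotation, FOXA1 lies at chr14:37589552-37596059 (minus strand), FOXA2 at chr20:22580998-22585455 (minus), FOXA3 at chr19:45863989-45873797 (plus), CEBPA at chr19:33299934-33302534 (minus) and CEBPB at chr20:50190830-50192668 (plus). HNF4A lies at chr20:44355699-44432845 (plus), NR1H4 at chr12:100473708-100564414 (plus), NR5A2 at chr1:200027614-200177420 (plus) and PROX1 at chr1:213983181-214041510 (plus). HNF4A, PROX1 and CEBPB overlap annotated antisense genes (HNF4A-AS1, PROX1-AS1 and CEBPB-AS1), FOXA1 overlaps TTC6, and the strand setting of the counting is not given in the sources used here, so reads of the pairs may not be separated. The antisense genes were low at 0 h in siControl, at 5.67 and 5.45 CPM for HNF4A-AS1 and 2.84 and 2.41 CPM for PROX1-AS1, against 311 and 144 CPM for HNF4A and PROX1 in replicate 1.

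Whether a knockdown changed the decay of a member was tested as a difference in slope from siControl. None of the 9 passed in siIGF2BP1, siIGF2BP2 or siIGF2BP3 in edgeR, against 0.0152%, 0.0% and 0.0228% of all genes (2, 0 and 3 genes). Over all genes an unadjusted p under 0.05 was reached by 1436, 896 and 2113 genes. Nearly all of these lay in the direction of slower loss than in siControl (1403, 880 and 2099 genes), as did the all-gene medians given below. DESeq2 called 8, 6 and 25 genes, none of them a member. Of the members, CEBPA in siIGF2BP2 came nearest to the threshold by its unadjusted value, with a slope difference of 0.41 (SE 0.181, adjusted p = 0.643 in edgeR).

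The precision of this test differed between members. For NR1H4 the slope differences were 0.14, 0.29 and 0.19 in siIGF2BP1, siIGF2BP2 and siIGF2BP3 (SE 0.16, 0.159 and 0.16), and for HNF4A 0.19, 0.27 and 0.18 (SE 0.211, 0.21 and 0.211), beside all-gene medians of 0.19, 0.17 and 0.22. For FOXA1, FOXA2 and FOXA3, whose loss was far from linear in time, the SE ran from 0.878 to 1.02, so that a change of 1 on the log2 scale would not have been detectable. The change from 0 to 3 h, which assumes no straight line, had an SE of 0.139 to 0.146 for FOXA1 and also called none of the 9, against 0.0609%, 0.0457% and 0.0761% of all genes. An unadjusted p under 0.05 was reached by 452, 299 and 519 genes there, of which 375, 172 and 472 were in the direction of slower loss. DESeq2 called 4, 0 and 1 genes, none of them a member. The change from 0 to 6 h in group means called FOXA2 in siIGF2BP1 (0.66, adjusted p = 0.0272 in edgeR) and no other member, where 86 of 13136 genes were called, and with TMM scaling it called no member and 66 genes.

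Half-lifetimes in the 4 conditions are given side by side, with no test. In the order siControl, siIGF2BP1, siIGF2BP2, siIGF2BP3, that of FOXA1 was 0.874, 0.838, 0.902 and 0.885 h. NR1H4 was at 2.76, 3.12, 3.08 and 3.18 h, and HNF4A at 5.25, 6.40, 6.41 and 5.99 h. The median of the genes with a half-lifetime was 6.25, 6.94, 6.53 and 7.03 h. It rests on 11006, 10316, 10974 and 10192 genes, so the sets of genes differ between conditions. The order of the members was the same in every condition but for FOXA2, CEBPA and FOXA3, which exchanged places between 0.989 and 1.13 h.

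**Figure D4:**
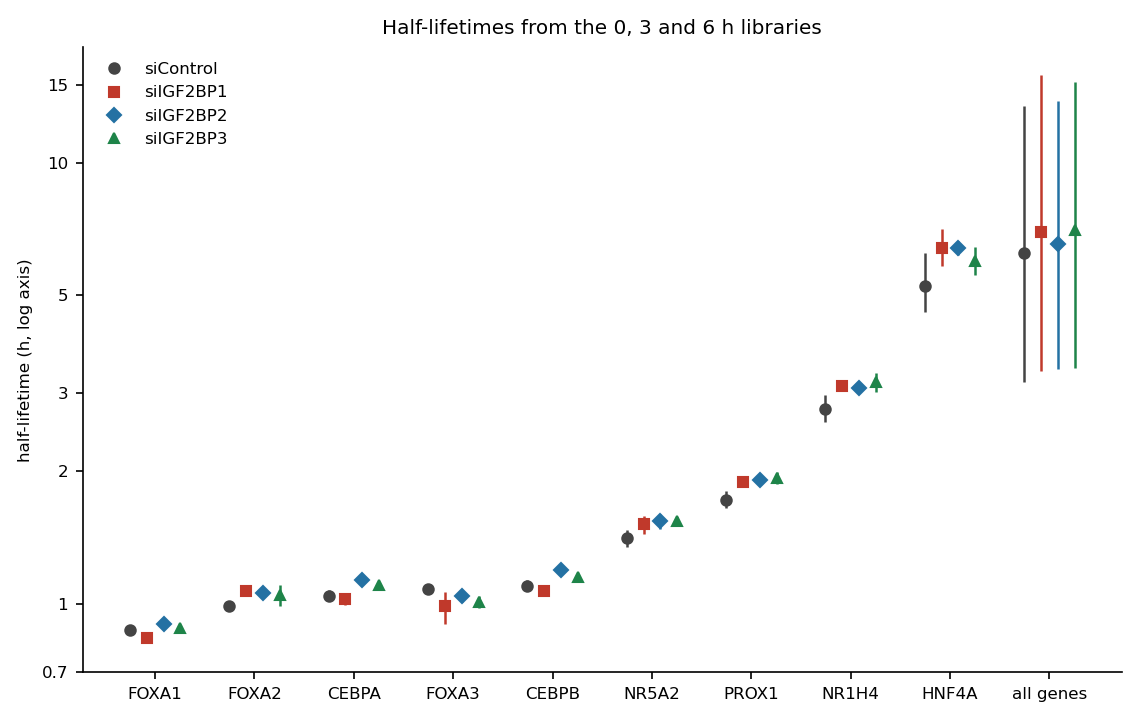
Half-lifetime (h, log axis, vertical) of each mRNA in the 4 conditions. Bars on the members are the range when 1 library at a time is left out. The points and bars labelled all genes are the median and quartiles of the genes with a half-lifetime. FOXA1 lies at 0.838 to 0.902 h and NR1H4 at 2.76 to 3.18 h. HNF4A, at 5.25 to 6.41 h, is the only member near those medians of 6.25 to 7.03 h.

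The genes around the network were also compared at 0 h. Among the 29 other liver transcription factors, 4 rose and 5 fell in siIGF2BP1, none rose and 4 fell in siIGF2BP2, and 3 rose and 1 fell in siIGF2BP3. The shares called were 31.0%, 13.8% and 13.8%, beside 15.9%, 12.1% and 9.39% of all genes. CREB3L3, a factor of lipid metabolism, rose by 0.49 in siIGF2BP1 (adjusted p = 2.97e-05 in edgeR), and RXRA, the dimer partner of NR1H4, by 0.17 in siIGF2BP1 (adjusted p = 0.0113) and 0.18 in siIGF2BP3 (adjusted p = 0.0162). HLF, a PAR bZIP factor, fell by 0.39 in siIGF2BP2 (adjusted p = 1.6e-11 in edgeR). ESRRA, an orphan receptor of mitochondrial metabolism, fell in each knockdown, with -0.45 for siIGF2BP1 (adjusted p = 1.9e-05 in edgeR), -0.22 for siIGF2BP2 (adjusted p = 0.044) and -0.30 for siIGF2BP3 (adjusted p = 0.00695).

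Of the 15 partners and coregulators, 2 rose and 1 fell in siIGF2BP1, and 2 rose and none fell in each of the other knockdowns, which is 20%, 13.3% and 13.3% of the list beside the same shares of all genes. PPARGC1A, a coactivator of HNF4A, fell by 0.40 in siIGF2BP1 (adjusted p = 0.00817 in edgeR), and TLE1 rose by 0.37 in siIGF2BP2 (adjusted p = 2.85e-05). Of 4 neighbouring noncoding RNAs tested, PROX1-AS1 fell by 0.66 in siIGF2BP1 (adjusted p = 0.0356 in edgeR), and HNF4A-AS1 fell by 0.61 in siIGF2BP2 (adjusted p = 0.0155). PROX1-AS1 had means of 2.63, 1.62, 1.97 and 1.88 CPM in siControl, siIGF2BP1, siIGF2BP2 and siIGF2BP3. Those of PROX1 were 143, 128, 148 and 140 CPM in the same order. LINC00261, beside FOXA2, and CEBPB-AS1 were too low to test.

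Of 28 targets and liver products tested, 8 rose and 1 fell in siIGF2BP1, 3 rose and 10 fell in siIGF2BP2, and 5 rose and 3 fell in siIGF2BP3. That is 32.1%, 46.4% and 28.6% of the list, beside 15.9%, 12.1% and 9.39% of all genes. Their median log2 differences were 0.04, -0.13 and 0.00, against 0.01, 0.02 and 0.00 for all genes. HP, the acute-phase protein haptoglobin and a C/EBP target, was higher in siIGF2BP1 (0.46, adjusted p = 8.47e-12 in edgeR) and siIGF2BP3 (0.16, adjusted p = 0.00383) and lower in siIGF2BP2 (-0.23, adjusted p = 2.3e-05). FGB, a fibrinogen chain, rose by 0.17 in siIGF2BP1 (adjusted p = 9.94e-05 in edgeR), 0.26 in siIGF2BP2 (adjusted p = 1.21e-07) and 0.28 in siIGF2BP3 (adjusted p = 7.74e-08).

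SLC51A, a bile acid exporter subunit whose gene is a target of NR1H4, was at 7.70 and 5.18 CPM in siControl, 6.10 and 4.67 CPM in siIGF2BP1, 3.43 and 3.40 CPM in siIGF2BP2 and 3.35 and 3.55 CPM in siIGF2BP3. The siIGF2BP2 and siIGF2BP3 libraries lay below the siControl libraries, with log2 differences of -0.91 (adjusted p = 0.0002 in edgeR) and -0.90 (adjusted p = 0.000432). SLC51B did not share this pattern, with means of 8.91, 9.08, 8.13 and 8.81 CPM in siControl, siIGF2BP1, siIGF2BP2 and siIGF2BP3. The nuclear receptor gene NR0B2 had means of 20.9, 16.4, 17.2 and 19.7 CPM in the same order. HSD3B7, a bile acid synthesis enzyme, was at 27.8 CPM in both siControl libraries, 31.7 and 35.3 CPM in siIGF2BP1 and 22.6 and 23.0 CPM in siIGF2BP2, with log2 differences of 0.26 (adjusted p = 0.00485 in edgeR) and -0.29 (adjusted p = 0.00355). Of the listed bile acid genes, CYP7A1, ABCB11, SLC10A1 and FGF19 were too low to test and reached at most 0.408 CPM in any library, and CYP3A4 and FGF21 at most 0.295 CPM.

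Likeness of pattern was measured as Pearson's r of log2 (TMM CPM + 1) over the 24 libraries, after the mean of each time point was removed, and is given as a description, since all genes share libraries and scaling. Nearest to NR1H4 were CYP4F3 (r = 0.967) and TBL1XR1 (r = 0.962), to HNF4A MOGAT2 (r = 0.938) and DGAT2 (r = 0.933), to PROX1 IRX3 (r = 0.940) and ZFHX3 (r = 0.921), and to FOXA1 SLC37A3 (r = 0.925) and ZFHX3 (r = 0.913). Among the members themselves, HNF4A and NR1H4 (r = 0.887) and FOXA1 and PROX1 (r = 0.819) were the closest pairs, and HNF4A and PROX1 the most opposed (r = -0.687). For CEBPA the nearest were HERPUD1 (r = 0.810) and JUND (r = 0.757), for FOXA3 GCHFR (r = 0.792) and REXO1 (r = 0.756), and for NR5A2 DIDO1 (r = 0.753) and GAS2L3 (r = 0.744). CEBPB, with ZNF142 (r = 0.735), and FOXA2, with CDC42SE1 (r = 0.677) and IHH (r = 0.676), had the weakest nearest genes.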

How the data were processed

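Libraries were made with a stranded kit from polyadenylated RNA to which ERCC RNA had been added in proportion to total RNA, and read from a single end. The authors deposited raw read counts per gene, made with HTSeq on GENCODE annotation after trimming and alignment to hg38 (Trimmomatic 0.39 and HISAT2 2.1.0 in the submitters' processing notes); the strand and overlap settings are not given in the sources used here. Summary rows (13.6 to 17.1% of all rows' reads) and 45 pseudoautosomal Y rows were left out, and 58207 identifiers matched a symbol, 469 did not.

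Tests used edgeR 4.0.16 (quasi-likelihood, R 4.3.3; Python 3.11.15 for tables) on the 13136 genes that reached 1 CPM in 2 or more libraries, with Benjamini-Hochberg adjustment over all of them and a threshold of 0.05. Knockdown and siControl at 1 time were compared with TMM scaling and 12 group means. Decay used ERCC scaling and an intercept and slope per condition. Intervals used ERCC scaling and 12 group means, where the estimated prior degrees of freedom were infinite, so these p-values treat the spread as known. Half-lifetime was ln 2 divided by the mean first-order rate over 3 and 6 h. DESeq2 1.42.0, other scalings and filters, a replicate block and leaving out single libraries were the alternatives. Fits were tested on simulated data. The same-number deviations correlated at -0.00906 to 0.164 within a condition. All 3 pairs of time points of siIGF2BP3 exceeded 0.1 (0.113 to 0.164), and those of the other conditions did not. However, siControl at 6 h and siIGF2BP3 at 3 h, which share neither condition nor time, reached 0.216. These values therefore cannot tell whether the numbers pair time points. Time points were fitted as independent, with the block as an alternative. No replicate pair was a repeat deposit: their counts gave a chi-square of 3.24 to 8.49 per degree of freedom.

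The members and gene lists were chosen with earlier results of these data known. All 9 members are named throughout, and of each other list those past the threshold, at most the 6 of smallest adjusted p. The cell type markers that moved, SLC51A in siIGF2BP1, PROX1-AS1 in siIGF2BP2 and siIGF2BP3, SLC51B and NR0B2 were named after their values were seen. For each member the 2 genes of most similar pattern were sought, of which some are not reported here.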

Additional observations from a re-analysis of the deposited data

Results flagged for a closer look

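At 0 h, 12 differences between knockdowns passed the test of the difference itself (edgeR, TMM scaling, adjusted over all genes). Between siIGF2BP1 and siIGF2BP2, where 18.7% of all genes differed, NR1H4 was higher in siIGF2BP1 by 0.70 (adjusted p = 3.76e-14), HNF4A by 0.28 (adjusted p = 1.15e-07) and CEBPA by 0.26 (adjusted p = 0.00238), while FOXA1 (-0.26, adjusted p = 0.000173) and PROX1 (-0.20, adjusted p = 0.000313) were lower in edgeR. Between siIGF2BP1 and siIGF2BP3 (14.3% of all genes), CEBPA was higher in siIGF2BP1 by 0.25 (adjusted p = 0.00447), NR1H4 by 0.23 (adjusted p = 0.000788) and HNF4A by 0.13 (adjusted p = 0.00873), and PROX1 was lower (-0.13, adjusted p = 0.0322) in edgeR. Between siIGF2BP2 and siIGF2BP3 (9.19% of all genes), NR1H4 (-0.48, adjusted p = 2.13e-09) and HNF4A (-0.15, adjusted p = 0.00374) were lower in siIGF2BP2 and FOXA1 was higher (0.22, adjusted p = 0.00311) in edgeR.

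The differences between siIGF2BP1 and siIGF2BP3 were the least stable: with ERCC scaling none of the 4 passed in edgeR. Those of HNF4A, CEBPA and PROX1 were also lost without replicate 2 of siIGF2BP1 (0.097, 0.22 and -0.12). HNF4A was lost without either siIGF2BP3 library too (0.13 in both). PROX1 was lost without replicate 1 of siIGF2BP1 (-0.14) or replicate 2 of siIGF2BP3 (-0.093). The CEBPA differences were lost in DESeq2 as well (adjusted p = 0.0506 against siIGF2BP2 and 0.0833 against siIGF2BP3). With ERCC scaling, HNF4A no longer differed between siIGF2BP2 and either siIGF2BP1 or siIGF2BP3 (adjusted p = 0.185 and 0.563 in edgeR). That scale also took away CEBPA between siIGF2BP1 and siIGF2BP2 (adjusted p = 0.294) and FOXA1 between siIGF2BP2 and siIGF2BP3 (adjusted p = 0.255). These 2 were lost without a single library too, CEBPA without replicate 2 of siIGF2BP2 (0.21) and FOXA1 without replicate 1 of siIGF2BP2 (0.19). The NR1H4 differences that involve siIGF2BP2 held under each alternative run.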

How the results depend on the processing

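ERCC scaling took away the 0 h calls of HNF4A and PROX1 in siIGF2BP1 and of NR1H4 in siIGF2BP2. Between knockdowns it took away HNF4A and CEBPA (siIGF2BP1 and siIGF2BP2), all 4 members called (siIGF2BP1 and siIGF2BP3), and HNF4A and FOXA1 (siIGF2BP2 and siIGF2BP3). At 3 h it took away FOXA1 and FOXA3 in siIGF2BP1 and CEBPB in siIGF2BP2. It added CEBPA (0.32, adjusted p = 0.0149 in edgeR) and PROX1 (0.26, adjusted p = 0.0324) in siIGF2BP3. At 6 h it called 5 members in place of 2 in siIGF2BP2 and 6 in place of 2 in siIGF2BP3, beside the numbers of all genes given above. Fitting only the libraries compared at 0 h added FOXA2 in siIGF2BP1, HNF4A in siIGF2BP2 (-0.075, adjusted p = 0.0416 in edgeR) and NR5A2 in siIGF2BP3 (0.30, adjusted p = 0.00993). The change from 0 to 6 h added FOXA2 for the slope in siIGF2BP1. Leaving out single libraries gave 1 to 1 in siIGF2BP2 at 0 h, 1 to 3 between siIGF2BP1 and siIGF2BP3, 2 to 3 in siIGF2BP1 and 1 to 4 in siIGF2BP3 at 3 h, and 1 to 2 in siIGF2BP3 at 6 h.

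Of 110 member results called under no setting, 53 changed sign under some setting. These include the slope differences of NR1H4 and HNF4A in siIGF2BP1 and siIGF2BP3, but not in siIGF2BP2. Of the results called under some setting, signs turned for HNF4A in siIGF2BP2 at 0 h (0.020 with ERCC scaling), the HNF4A slope in siIGF2BP2 (0.042 with TMM), HNF4A (0.21) and PROX1 (0.035) between 3 and 6 h with TMM, and PROX1 in siIGF2BP1 at 6 h (0.032 with ERCC scaling). Without single libraries at 6 h, HNF4A ran from -0.031 to 0.060 in siIGF2BP2 and from -0.00564 to 0.085 in siIGF2BP3, and in siIGF2BP3 FOXA2 from -0.088 to 0.36 and NR5A2 from -0.023 to 0.31. The cause was not tested in any of these.

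Over all genes at 0 h, ERCC scaling called 649, 732 and 471 genes in siIGF2BP1, siIGF2BP2 and siIGF2BP3, of which 39.0%, 76.9% and 82.4% were higher, against 2093, 1593 and 1234 genes with TMM. With TMM, decay in siControl called 5085 genes lower and 4773 higher, against 10551 and 33 with ERCC scaling. A replicate block gave 2181, 1683 and 1316 genes at 0 h and changed no count of members called. In siIGF2BP3, where the numbers may pair time points, it left 9 members falling over time, and a block within each condition called 0 slope differences among the members. With 2 libraries a group and 13 to 71 reads for FOXA3 after the drug in the comparisons called, small differences in that mRNA were not detectable.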
